A study of Mus musculus with 4 samples.

Results

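Stem and early progenitor identity genes were read in donor-derived myeloid progenitors of transplanted mice with and without functional *Bcor*. The group was a list of 10 gene symbols, *Cd34*, *Angpt1*, *Cd27*, *Cd48*, *Sox4*, *Mecom*, *Hlf*, *Procr*, *Mn1* and *Ly6a*, matched exactly to the rows of the deposited count table. Of these, 7 were among the 12067 genes of the table. *Mecom*, *Procr* and *Mn1* have no row in it, and no level is given for them. The cells were myeloid progenitors of the KL gate (no lineage markers, c-Kit present, Sca-1 absent), sorted as CD45.2+ donor cells from bone marrow of *Ptprca* recipients 20 weeks after a transplant of whole bone marrow. The 2 BcorΔE9-10 libraries came from donors carrying scl-Cre-ERT and a floxed *Bcor* allele on their single X chromosome (Bcorfl/y). The 2 BcorWT libraries came from Bcorfl/y donors whose labels list no Cre. Per the study's methods, donors of both genotypes were male and had received tamoxifen, recipients were female and sub-lethally irradiated, and the Cre was active in haematopoietic stem cells, so that the deletion reached KL cells through their descent. The presence of Cre and the loss of *Bcor* exons therefore cannot be told apart, and the labels do not say whether a library was made from a single recipient or from a pool. P-values here measure the spread between these libraries, which may be technical.

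As background, haematopoiesis is organised as a hierarchy in which stem cells give rise to multipotent progenitors and these to committed myeloid and lymphoid progenitors. The genes described here mark successive levels of it. *Ly6a* encodes Sca-1, the antigen that separates the stem cell compartment (KSL) from KL cells, *Procr* encodes the endothelial protein C receptor, and *Mecom*, *Hlf* and *Mn1* encode nuclear factors of stem cells whose activation is also known from leukaemia. *Cd34*, *Cd48* and *Cd27* encode surface proteins that appear as stem cells become progenitors, *Sox4* encodes an HMG-box transcription factor of progenitors, and *Angpt1* encodes a secreted ligand of the Tie2 receptor. Bcor itself is a subunit of a variant Polycomb repressive complex that is recruited to CpG-rich DNA through Kdm2b.

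Total counts ranged from 3825289.5 to 6253100.5 per library, and 3 counts corresponded to between 0.489 and 0.876 CPM (counts relative to the effective library size, scaled with edgeR's TMM factors). *Bcor* had 104 and 113 counts in BcorΔE9-10 and 58 and 79 in BcorWT, which does not check the genotypes because Quant-seq reads the 3′ end and the deletion lies upstream. The progenitor markers *Kit*, *Myb*, *Cd34* and *Mpo* were all detected, and *Mpo*, which encodes myeloperoxidase, had between 4284 and 6888 CPM. *Kit* had 52.1 and 61.9 CPM in BcorΔE9-10 and 53.7 and 29.4 in BcorWT, so BcorWT replicate 2 had the lowest level of the gene that defines the gate. Markers of mature neutrophils, cells that the lineage gate should remove, summed to 63630 and 155750 CPM in BcorΔE9-10 and to 94874 and 144380 in BcorWT (12 of 12 markers in the table). *Xist*, which is made by female cells, had 2.40 and 3.91 CPM in BcorΔE9-10 and 18.7 and 19.0 in BcorWT. The single transcript *Gm42418* held between 1.43 and 27.9% of a library, lowest in BcorWT replicate 2 and highest in BcorWT replicate 1. In bulk RNA, fewer cells of a type and less RNA per cell cannot be told apart.

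The comparison of BcorΔE9-10 with BcorWT asks whether loss of *Bcor* leaves stem cell genes expressed in committed myeloid progenitors. For the 7 measured genes, *Cd34* and *Sox4* had lower levels in both BcorΔE9-10 libraries than in either BcorWT library, *Angpt1* had higher levels in both, and *Cd27*, *Cd48*, *Hlf* and *Ly6a* overlapped between genotypes. In edgeR's quasi-likelihood test with Benjamini-Hochberg adjustment, 0 of the 7 genes passed an adjusted p under 0.05, as did 0.0166% of all genes tested. At an unadjusted p under 0.05 there were also 0 of 7, against 4.42% of all genes (1.34% higher and 3.07% lower in BcorΔE9-10), and the count passing adjustment was likewise 0 with limma-voom and with DESeq2. Groups that did not overlap were found for 1 gene with higher and 2 genes with lower values in BcorΔE9-10, where 16.8% and 17.1% of all genes (33.9% together) did not overlap. With 3 of 7 genes above 0 on the log2 fold change scale, beside 47.7% of all genes, the median of the group was -0.09, beside -0.03 for all genes. Both values depended on the libraries used, with 5 of 7 genes above 0 and a median of 0.16 (0.02 for all genes) without BcorWT replicate 1, and 2 of 7 and a median of -0.33 (0.0034 for all genes) without BcorWT replicate 2. With at least 10 counts required in every library, which removes *Ly6a*, 3 of 6 were above 0 and the median was 0.04.

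**Figure D1:**
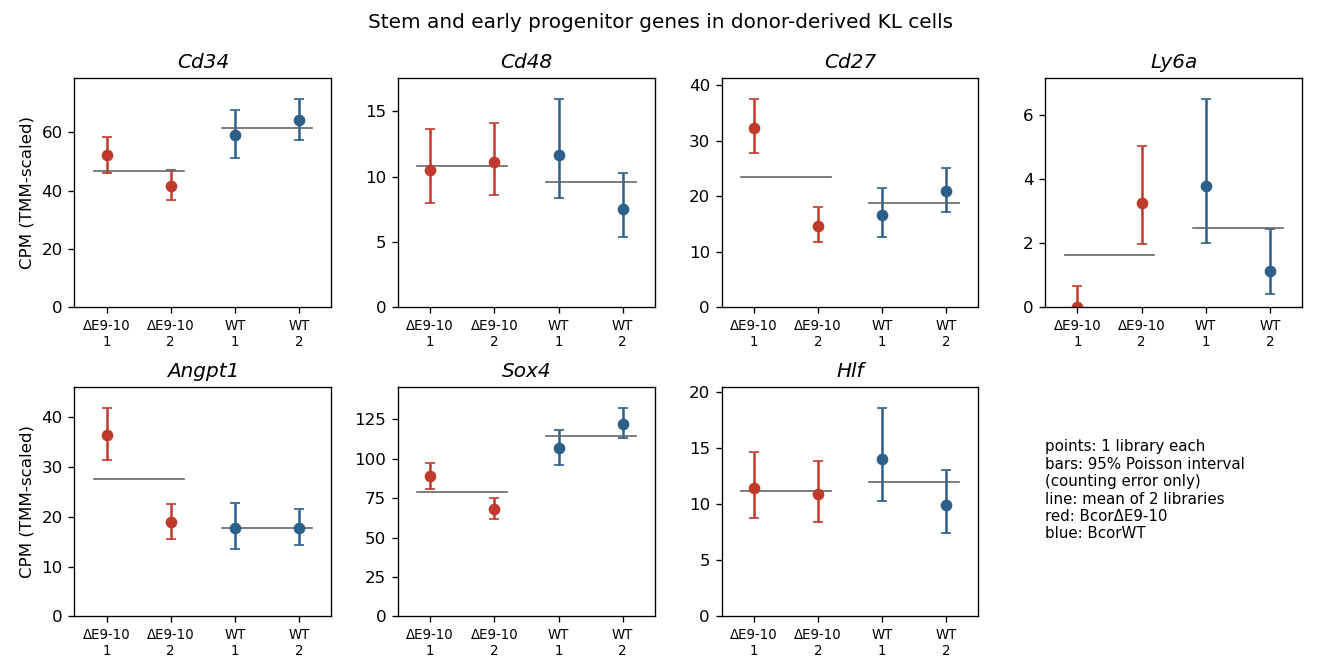
Level of each gene (CPM, TMM-scaled, linear axis from 0) in the 4 libraries, BcorΔE9-10 in red and BcorWT in blue, with the 95% Poisson interval of each count as a bar and the mean of each genotype as a line. The groups are separate for *Cd34* and *Sox4* (lower in BcorΔE9-10) and for *Angpt1* (higher), where BcorΔE9-10 replicate 2 at 18.9 CPM lies close to BcorWT.

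**Figure D2:**
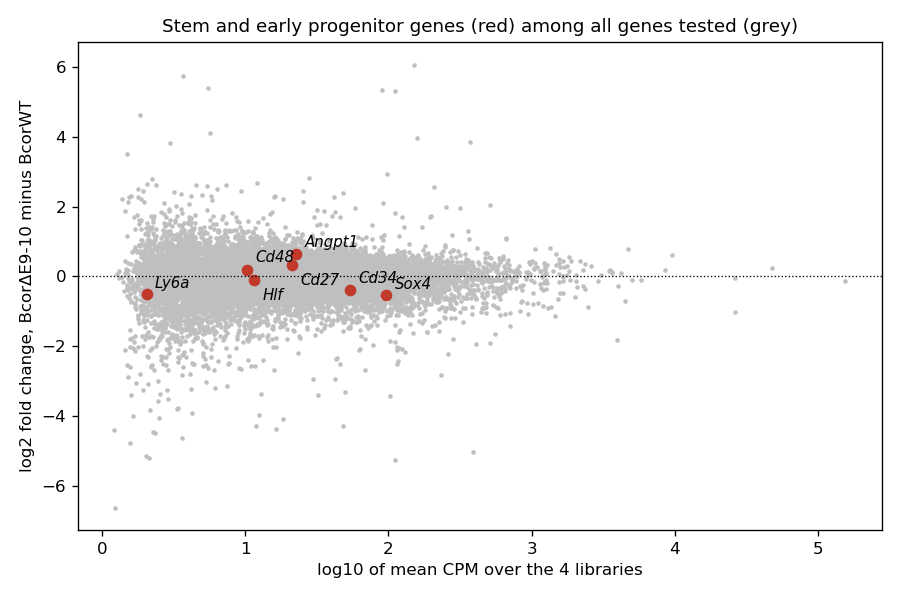
Log2 fold change (BcorΔE9-10 minus BcorWT, edgeR) against the log10 of the mean CPM of the 4 libraries, with the 12067 genes tested in grey and the 7 measured stem and early progenitor genes in red. The red points run from -0.54 for *Sox4* to 0.64 for *Angpt1*, inside the grey cloud at their level.

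Among the surface proteins, *Cd34* (ENSMUSG00000016494, chromosome 1 of GRCm38, 194938819 to 194961279, plus strand) encodes the sialomucin that divides KL cells into CD34-positive and CD34-negative progenitors. It had 282 and 256 counts in BcorΔE9-10 and 202 and 341 in BcorWT, or 52.1 and 41.7 against 59.0 and 64.2 CPM. Both BcorWT libraries thus lay above both BcorΔE9-10 libraries, although the 95% Poisson interval of BcorΔE9-10 replicate 1 (46.2 to 58.6 CPM, counting error only) overlapped with that of BcorWT replicate 1 (51.1 to 67.7). Mean levels were 46.9 ± 7.35 CPM (SD, n = 2) and 61.6 ± 3.66 (SD, n = 2). The log2 fold change was -0.39 (standard error 0.31, 95% interval -1.11 to 0.33, edgeR adjusted p = 0.945), a level 1.31-fold lower that was within the spread of the fit. It kept its sign when each library was left out in turn (-0.56 to -0.24). A larger absolute log2 fold change was found for 42.3% of all genes.

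*Cd48* (chromosome 1, 171682009 to 171705258) encodes a SLAM family protein that long-term stem cells lack and that progenitors carry. It had 57 and 68 counts in BcorΔE9-10 and 40 and 40 in BcorWT, or 10.5 and 11.1 against 11.7 and 7.53 CPM. The BcorΔE9-10 values lay between those of the BcorWT libraries. Its log2 fold change of 0.18 (standard error 0.44, 95% interval -0.84 to 1.21) turned to -0.11 without BcorWT replicate 2.

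*Cd27* (chromosome 6, 125232622 to 125237010) encodes a receptor of the tumour necrosis factor family that is carried by short-lived stem cells and multipotent progenitors. It had 175 and 90 counts in BcorΔE9-10 against 57 and 111 in BcorWT. BcorΔE9-10 replicate 1 stood apart at 32.3 CPM, with a 95% Poisson interval of 27.7 to 37.5, whereas BcorΔE9-10 replicate 2 was the lowest of the 4 libraries at 14.7 (11.8 to 18.0). BcorWT had 16.6 and 20.9 CPM. The BcorΔE9-10 libraries differed from each other by 1.12 on the log2 scale, more than the 0.32 between genotypes (standard error 0.45, 95% interval -0.72 to 1.35). Without BcorΔE9-10 replicate 1 the log2 fold change was -0.36.

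*Ly6a* (chromosome 15, 74994877 to 74998031) had 0 and 20 counts in BcorΔE9-10 and 13 and 6 in BcorWT, or 0 and 3.26 against 3.80 and 1.13 CPM. The count of 0 in BcorΔE9-10 replicate 1 allows up to 0.554 CPM by the limit of 3 counts, and the 2-sided 95% Poisson interval drawn in the plot by library reaches 0.682. Only 2.16% of the genes in the table had a lower mean level, in cells that were sorted as negative for the Sca-1 protein. The groups overlapped, the 95% interval of the log2 fold change ran from -3.55 to 2.52, and no difference was detected. The libraries of a genotype disagreed, by 3.21 on the log2 scale in BcorΔE9-10 and by 1.46 in BcorWT. For BcorΔE9-10 this exceeded counting error, since the Poisson interval of replicate 2 was 1.99 to 5.04 CPM. The last 400 bases of its transcript were most like *Ly6i* (87.2% identity over 368 bases), which has no row in the table.

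The secreted ligand *Angpt1* (ENSMUSG00000022309, chromosome 15, 42424723 to 42676977, minus strand) had the largest log2 fold change above 0 of the 7 genes. It had 197 and 116 counts in BcorΔE9-10 and 61 and 94 in BcorWT, or 36.4 and 18.9 against 17.8 and 17.7 CPM. The BcorWT libraries were almost equal, and only BcorΔE9-10 replicate 1 lay outside their counting error, since the 95% Poisson interval of BcorΔE9-10 replicate 2 was 15.6 to 22.7 CPM. The BcorΔE9-10 replicates differed by 0.93 on the log2 scale and the BcorWT replicates by 0.01. Means were 27.7 ± 12.4 CPM (SD, n = 2) in BcorΔE9-10 and 17.8 ± 0.0884 (SD, n = 2) in BcorWT. The log2 fold change of 0.64 (standard error 0.41, 95% interval -0.30 to 1.58, edgeR adjusted p = 0.945) corresponds to a level 1.56-fold higher, and it shrank to 0.09 without BcorΔE9-10 replicate 1 and grew to 1.04 without BcorΔE9-10 replicate 2. Its receptor gene *Tek* has no row in the table.

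Among the nuclear factors, *Sox4* (ENSMUSG00000076431, chromosome 13, 28948919 to 28953713, minus strand) had 481 and 420 counts in BcorΔE9-10 and 366 and 650 in BcorWT, or 88.9 and 68.5 against 107 and 122 CPM. Both BcorΔE9-10 libraries were below both BcorWT libraries. The 95% Poisson intervals of BcorΔE9-10 replicate 1 (81.1 to 97.2 CPM) and BcorWT replicate 1 (96.2 to 118) overlapped only at their ends. Means were 78.7 ± 14.4 CPM (SD, n = 2) and 115 ± 10.9 (SD, n = 2), a level 1.46-fold lower in BcorΔE9-10. The log2 fold change was -0.54 (standard error 0.32, 95% interval -1.28 to 0.20, edgeR adjusted p = 0.945). Leaving out single libraries gave -0.74 to -0.36, and the smallest adjusted p over all alternatives was 0.200.

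The counts of *Sox4* have a second reading. The lincRNA *Gm26735* (chromosome 13, 28943048 to 28951671) lies on the opposite strand and shares 2616 of its 2649 exonic bases with the single exon of *Sox4*, including 363 of the last 500 bases before the 3′ end of *Sox4*. *Gm26735* had 433 and 376 counts in BcorΔE9-10 and 328 and 578 in BcorWT, which is 0.9, 0.895, 0.896 and 0.889 of the *Sox4* count in the same library. Its log2 fold change was -0.53. The use of strand in the counting is not given in the sources used here, so reads of this locus cannot be assigned to *Sox4* or to *Gm26735* from the table, and the rows are not independent measurements. None of the other 6 measured genes shared exonic bases in its last 500 with a gene that has a row in the table.

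*Hlf* (chromosome 11, 90336536 to 90390895) encodes a PAR bZIP factor that is most abundant in stem cells. It had 62 and 67 counts in BcorΔE9-10 and 48 and 53 in BcorWT, or 11.5 and 10.9 against 14.0 and 9.97 CPM. The BcorΔE9-10 libraries fell between the BcorWT libraries, and the log2 fold change of -0.09 (standard error 0.42, 95% interval -1.06 to 0.87) turned to 0.16 without BcorWT replicate 1.

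**Figure D3:**
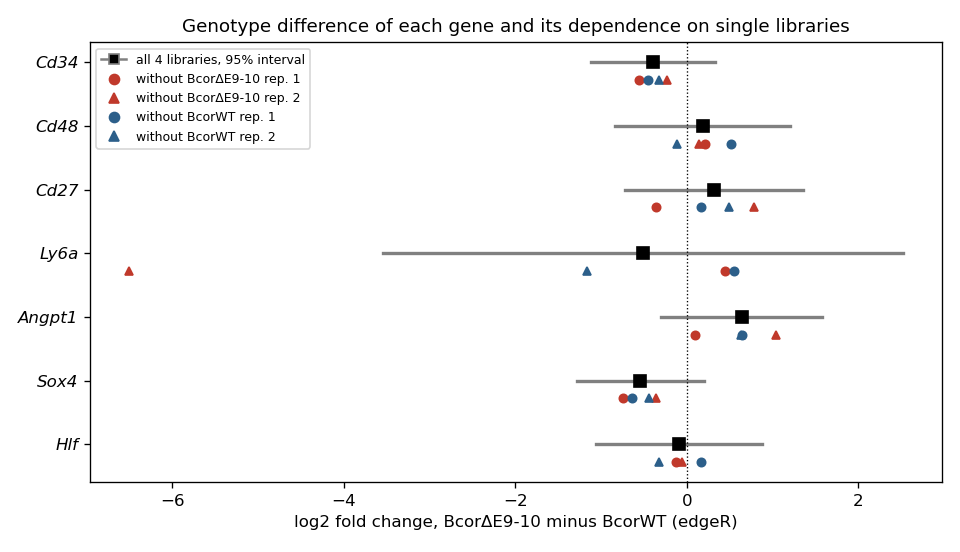
Log2 fold change of each gene (square, BcorΔE9-10 minus BcorWT, edgeR) with its 95% interval as a line, and the values obtained when a single library was left out as red (BcorΔE9-10) or blue (BcorWT) symbols. Every interval crosses 0, and the left-out values stay on the same side of 0 for *Cd34*, *Angpt1* and *Sox4*. The value for *Ly6a* near -6.51 compares a lone library with 0 counts and depends on the prior count.

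Ratios of counts inside a library do not depend on how libraries are scaled. They were added after the values above were seen. *Sox4* stood in a nearly fixed ratio to *Cd34*, 1.71 and 1.64 in BcorΔE9-10 and 1.81 and 1.91 in BcorWT, lower in both BcorΔE9-10 libraries. The ratio of *Angpt1* to *Cd34* was 0.699 and 0.453 in BcorΔE9-10 and 0.302 and 0.276 in BcorWT, and that of *Cd27* to *Cd34* was 0.621 and 0.352 against 0.282 and 0.326. Both ratios were highest in BcorΔE9-10 replicate 1, and both BcorΔE9-10 libraries lay above both BcorWT libraries. The level of the divisor *Cd34* was itself lower in both BcorΔE9-10 libraries, which raises ratios to it there. These separations are therefore not evidence of a rise of *Angpt1*, *Cd27* or *Cd48*. No interval was computed for any ratio, and the share of all genes separated by such a ratio was not counted. The ratio of *Cd48* to *Cd34* was separated in the same direction, 0.202 and 0.266 against 0.198 and 0.117, and the levels of *Cd27* and *Cd48* themselves overlapped. The ratios to *Cd34* overlapped for *Hlf* (0.220 and 0.262 against 0.238 and 0.155) and for *Ly6a* (0 and 0.0781 against 0.0644 and 0.0176). Relative to *Kit* the genotypes overlapped for *Angpt1*, with 0.699 and 0.305 in BcorΔE9-10 against 0.332 and 0.603 in BcorWT. They also overlapped for *Cd27*, with 0.621 and 0.237 against 0.310 and 0.712. *Sox4* relative to *Kit* was lower in both BcorΔE9-10 libraries, 1.71 and 1.11 against 1.99 and 4.17. *Cd34* relative to *Kit* was 1.00 and 0.674 in BcorΔE9-10 and 1.1 and 2.19 in BcorWT. This ratio was lower in both BcorΔE9-10 libraries, by a narrow margin between the replicates numbered 1. The widest gap was to BcorWT replicate 2, where *Kit* was low. *Kit* itself had a log2 fold change of 0.46, so these ratios are not a separate measure of *Cd34* or *Sox4*.

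**Figure D4:**
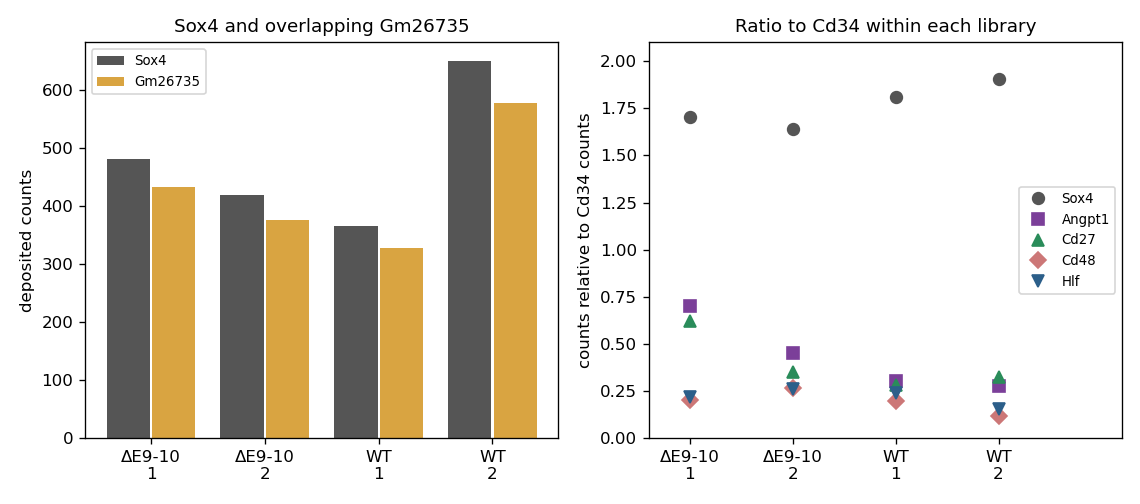
Left, deposited counts of *Sox4* and of the overlapping lincRNA *Gm26735* in each library, as bars from 0. Right, counts of 5 genes divided by the *Cd34* count of the same library. The *Gm26735* bar follows the *Sox4* bar in all 4 libraries, and *Angpt1* and *Cd27* are highest relative to *Cd34* in BcorΔE9-10 replicate 1.

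Promoter sequence is shown for *Cd34* and *Sox4*, whose levels ran together over the 4 libraries, and for *Hlf*, the gene with the most CpG, because Bcor acts in a complex that is drawn to CpG. RefSeq entries (GRCm38.p6, 250 bases before to 50 after the start site) were found for 7 of the 10 genes. Capitals mark CpG, and sequences read 5′ to 3′ on the strand of the gene, at chr1:194938571-194938870 (plus), chr13:28953650-28953949 (minus) and chr11:90390868-90391167 (minus).
Cd34: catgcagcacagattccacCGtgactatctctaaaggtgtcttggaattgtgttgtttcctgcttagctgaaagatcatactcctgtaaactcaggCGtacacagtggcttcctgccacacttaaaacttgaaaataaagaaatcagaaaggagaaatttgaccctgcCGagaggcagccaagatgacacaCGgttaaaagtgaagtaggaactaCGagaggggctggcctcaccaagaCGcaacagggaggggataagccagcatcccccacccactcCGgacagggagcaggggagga
Sox4: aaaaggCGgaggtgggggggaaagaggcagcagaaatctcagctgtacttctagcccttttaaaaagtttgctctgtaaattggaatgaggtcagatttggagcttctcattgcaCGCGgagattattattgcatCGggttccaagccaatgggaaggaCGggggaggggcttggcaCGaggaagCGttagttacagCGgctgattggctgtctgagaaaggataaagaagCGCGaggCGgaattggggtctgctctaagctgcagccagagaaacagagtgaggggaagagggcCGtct
Hlf: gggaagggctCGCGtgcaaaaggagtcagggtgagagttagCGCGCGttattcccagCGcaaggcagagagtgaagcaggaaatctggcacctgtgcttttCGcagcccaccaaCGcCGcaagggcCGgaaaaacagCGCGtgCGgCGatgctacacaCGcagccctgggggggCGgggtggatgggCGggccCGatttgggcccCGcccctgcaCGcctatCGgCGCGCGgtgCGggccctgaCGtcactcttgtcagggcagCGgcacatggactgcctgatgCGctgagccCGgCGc

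The *Cd34* promoter held 7 CpG, the median of the 32851 promoters of that length, and *Cd27* and *Cd48* also held 7. *Sox4* held 12 and *Hlf* 30, and 88.3% of all promoters held fewer than *Hlf*. The part of CpG content in the levels was not tested. The letters GATAA on either strand, which GATA factors recognise, occurred once in the *Cd34* and once in the *Sox4* window and in 25.4% of all promoters. They also occurred once in each *Mecom* window. The letters TGTGGT were searched as well, and occurred once in the *Cd48* window and in 16.8% of all promoters. A match of letters describes the sequence and is not evidence of binding.

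Other genes of the stem cell programme were read from fixed lists. A list of 36 genes of stem cells and their progeny holds mostly transcription factor genes, and 32 were in the table. Of these, 26 had a log2 fold change above 0 and 6 below, beside 47.7% of all genes above 0. Their median of 0.41 was 0.05 without BcorWT replicate 2. BcorΔE9-10 replicates 1 and 2 had the highest level for 15 and 7 of the 32, and BcorWT replicates 1 and 2 for 9 and 1. In edgeR 0 of the 32 passed adjustment and 5 had an unadjusted p under 0.05, all 5 with higher values in BcorΔE9-10, as did 1.34% of all genes. *Hoxa9*, a homeobox gene of stem and leukaemic cells, had 60.4 and 50.04 CPM in BcorΔE9-10 against 17.2 and 13.2 in BcorWT (log2 fold change 1.87, standard error 0.34). *Hoxa9* passed adjustment with DESeq2 (adjusted p = 0.015) and in edgeR without BcorWT replicate 1 (adjusted p = 0.0164), where 3 of the 32 genes passed, all 3 with higher values in BcorΔE9-10, beside 4.94% of all genes. Among genes of the list with a mean of at least 10 CPM, *Hoxa7* (1.39), *Tal1* (1.08) and *Ikzf2* (0.87) were next on the same scale. *Hoxa7* ranged from 0.76 without BcorΔE9-10 replicate 1 to 1.83 without BcorΔE9-10 replicate 2, and *Ikzf2* from 0.26 without BcorWT replicate 2 to 1.81 without BcorWT replicate 1. Below that level *Hoxa5* (2.19), *Hoxa10* (1.90), *Hmga2* (1.60) and *Hoxb5* (1.46, with 14 and 0 counts in BcorWT) lay further from 0 than *Hoxa7*. These genes are named after their values were seen. *Sox4* and *Hlf* were below 0 in this same comparison.

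For surface and related genes of stem cells and multipotent progenitors, 21 of 38 were in the table. An unadjusted p under 0.05 in edgeR was found for 1, with lower values in BcorΔE9-10, beside 3.07% of all genes. With 10 above and 11 below 0, 0 of the 21 passed adjustment in edgeR or in DESeq2. Their median of -0.17 turned to 0.13 without BcorWT replicate 2, to 0.05 without BcorWT replicate 1, to 0.07 without BcorΔE9-10 replicate 2 and to 0.18 with limma-voom. *Eng*, which encodes endoglin, had 33.6 and 29.8 CPM in BcorΔE9-10 against 45.8 and 98.2 in BcorWT (log2 fold change -1.19, standard error 0.41). It was at -0.53 without BcorWT replicate 2 and at -1.63 without BcorWT replicate 1, where it passed adjustment (edgeR adjusted p = 0.0169). *Ifitm3*, *Ifitm1* and *Cd9* were at -0.98, -0.57 and 0.54, and *Ifitm3* was at 0.18 without BcorWT replicate 2 and at -1.62 without BcorWT replicate 1 (edgeR adjusted p = 0.0296). The only other gene of the list that passed in that setting was *Cxcr4*, with higher values in BcorΔE9-10. In all 4 libraries *Cxcr4* had 221 and 283 CPM against 294 and 84.5, and the genotypes overlapped. Leaving out single libraries gave -0.84 to -0.22 for *Ifitm1*. *Slamf1*, *Fgd5* and *Robo4*, which mark long-term stem cells, have no row in the table. Of 15 genes of lymphoid-primed progenitors, 8 were present with a median of 0.06, and 0 passed adjustment in edgeR or DESeq2.

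Relatives of each gene were read in the same way, and 0 passed adjustment in any of these families in edgeR, limma-voom or DESeq2 with all 4 libraries. The Ly6 genes beside *Ly6a* on chromosome 15 had 4 of 12 genes in the table, all 4 below 0 (47.7% of all genes were above 0) with a median of -0.99, and 2 had an unadjusted p under 0.05 (3.07% of all genes, counting lower values only). *Ly6c1* had 45.6 and 72.9 CPM in BcorΔE9-10 against 114 and 241 in BcorWT (log2 fold change -1.59, standard error 0.45), and *Ly6c2*, *Ly6e* and *Ly6g* were at -1.06, -0.92 and -0.66. All 4 genes were highest in BcorWT replicate 2, as were 8 of the 12 mature neutrophil markers, a list that holds *Ly6g*, and the part of neutrophil RNA in the Ly6 levels was not tested. Without BcorWT replicate 2 *Ly6c1* was at -0.95, *Ly6c2* at -0.26, *Ly6e* at -0.35 and *Ly6g* at -0.15, and the family median at -0.31. *Ly6g* ranged from -1.76 without BcorΔE9-10 replicate 2 to -0.04 without BcorΔE9-10 replicate 1. Without BcorWT replicate 1, where 4.94% of all genes passed, *Ly6c1* (-2.03), *Ly6c2* (-1.57) and *Ly6e* (-1.33) passed adjustment in edgeR, with adjusted p of 0.0145, 0.0283 and 0.0284. For the SLAM family 4 of 12 genes were present (median -0.25, with *Cd84* at 0.18), for relatives of Cd34 5 of 8 (median 0.16, with *Selplg* at -0.68), for angiopoietins and Tie receptors 3 of 9 (median -0.03) and for the ligand and partners of Cd27 9 of 13, all 9 below 0 (median -0.24, with *Traf2* at -0.53, *Tnfrsf1a* at -0.36 and *Siva1* at -0.27). Other *Sox* genes had 4 of 11 present (median -0.38, with *Sox15* at -0.49), and the PAR bZIP relatives of *Hlf* 3 of 3 (median -0.11, with *Tef* at 0.16 and *Nfil3* at -0.11). For the absent genes, partners and relatives of *Mecom* had 9 of 11 present (median -0.12, with *Prdm4* at -0.44 and *Ctbp1* at -0.33) and genes of the protein C pathway around *Procr* 5 of 10 (median 0.11, with *F2r* at 0.34). Leaving out single libraries gave -1.10 to 0.51 for *Traf2*, -0.67 to 0.04 for *Tnfrsf1a*, -0.60 to -0.26 for *Prdm4*, -1.10 to -0.09 for *Selplg*, -0.78 to -0.12 for *Sox15*, -0.58 to -0.04 for *Ctbp1*, 0.05 to 0.61 for *F2r* and 0.03 to 0.33 for *Cd84*.

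Lists of committed cells were read beside these levels, and 0 of their genes passed adjustment in edgeR with all 4 libraries. With DESeq2 *Car2* (adjusted p = 0.00467), *Prss34* (0.000623), *Mcpt8* (0.000704) and *Xist* (0.0132) passed, beside 0.356% of all genes. In edgeR *Mcpt8* passed without BcorWT replicate 2 (adjusted p = 0.0229), and without BcorWT replicate 1, where 4.94% of all genes passed, genes of 5 of these lists did, *Elane*, *Car2*, *Prss34*, *Mcpt8*, *Xist* and the dendritic cell marker *Bst2* among them. Granulocyte-monocyte progenitor genes, which CD34-positive KL cells express, were all present (15 of 15), 7 above and 8 below 0 with a median of -0.11, and *Elane* was at -0.77 with BcorWT replicate 2 and at 0.32 without it. Megakaryocyte-erythroid progenitor genes, which CD34-negative KL cells express, had 13 of 14 present, 10 above and 3 below 0 with a median of 0.84, and summed to 221 and 175 CPM in BcorΔE9-10 against 119 and 143 in BcorWT. The carbonic anhydrase gene *Car2* was the furthest from 0 among those with a mean of at least 10 CPM, at 2.45 (standard error 0.49). The megakaryocyte gene *Pf4* went the other way, at -0.98 (standard error 0.36), with 14.8 and 12.4 CPM in BcorΔE9-10 against 23.4 and 30.1 in BcorWT. The sums of the list were thus higher in BcorΔE9-10, where *Cd34* was lower, although not all of its genes were. The part of progenitor make-up in the *Cd34* values was not tested.

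Mast cell and basophil genes had 6 of 10 present, all 6 below 0 with a median of -0.87 and sums of 410 and 529 CPM in BcorΔE9-10 against 738 and 1070 in BcorWT (*Prss34* at -2.10, *Mcpt8* at -1.96). Erythroblast genes had 5 of 10 present, with sums of 80.2 and 75.0 against 21.6 and 47.8 CPM. Mature neutrophil genes had 9 of 12 below 0 with a median of -0.62 that turned to 0.14 without BcorWT replicate 2. *Lcn2*, which encodes the granule protein lipocalin, was at -1.08 and at 0.21 without that library, and the granule gene *Ngp* had 10206 and 24341 against 16822 and 54004 CPM. Their sum was lowest in BcorΔE9-10 replicate 1, the library in which *Angpt1* and *Cd27* were highest, and its part in those values was not tested. Dendritic cell genes had 9 of 13 present, 8 of the 9 below 0 with a median of -1.08 that was -0.27 without BcorWT replicate 2 (sums 336 and 278 against 389 and 486 CPM). *Bst2* was at -1.67, at -0.27 without BcorWT replicate 2 and at -2.36 without BcorWT replicate 1. Platelet and megakaryocyte genes had 5 of 9 present, 1 above and 4 below 0 with a median of -0.57 (112 and 144 against 111 and 270). Endothelial and stromal genes had 3 of 10 present (323 and 223 against 230 and 358). B cell genes had 4 of 9 present (59.7 and 47.6 against 58.4 and 62.9) without *Cd79a* or *Pax5*, and T and NK cell genes 4 of 12, all 4 below 0 with a median of -0.99 (152 and 133 against 139 and 263), without *Cd3e*, *Cd3d* or *Cd3g*. *Xist* was the only recipient marker listed, and the 4 genes of the Y chromosome were present in all libraries. The part of recipient cells in any difference above was not tested.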

How the data were processed

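Quant-seq 3′ mRNA libraries of donor-derived KL cells were available for 2 BcorΔE9-10 and 2 BcorWT samples. Per the study's methods, the authors discarded reads of low quality, trimmed both read ends (cutadapt), aligned to mm10 (HISAT2) and assigned reads to genes (subread). They deposited raw counts without normalization. In BcorΔE9-10 replicate 2 and BcorWT replicate 1 the deposited columns were treated as estimated counts (expected_counts unit), because 1 gene is not whole there, and were rounded. The filter behind the table is not given in the sources used here. Every gene reached at least 2.08 CPM in 2 libraries, so genes low in all libraries have no row.

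Counts were analysed with edgeR 4.0.16 in R 4.3.3 (filterByExpr, which removed 0 genes, TMM scaling, quasi-likelihood F test, prior count 0.125, Benjamini-Hochberg adjustment over 12067 genes). Standard errors were derived from the F statistic (absolute log2 fold change over its root), and 95% intervals use the t distribution of the fit. Poisson intervals cover counting error only, since no molecular identifiers are described. Alternatives were size factors of DESeq2 type, total counts, other filters, a replicate block, limma-voom (limma 3.58.1), DESeq2 1.42.0, a prior count of 2, omission of *Gm42418* and omission of each library. The fit was tested on simulated data with 200 changed genes. Positions came from GENCODE M21 (GRCm38), promoters from RefSeq, and transcript ends were aligned with blastn 2.17.0. Genes named from a list are, with the exceptions below, among its up to 4 genes with the largest absolute log2 fold changes. These have a mean of at least 10 CPM, and not all of them are printed. Exceptions are *Cxcr4*, named from the fit without BcorWT replicate 1, and *Hoxa5*, *Hoxa10*, *Hmga2* and *Hoxb5*, named after their values were seen. Genes named as absent are also outside this rule. Nearest patterns name 2 genes per non-overlapping gene. Members and lists were chosen with earlier results of these data known.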

Additional observations from a re-analysis of the deposited data

How the results depend on the processing

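None of *Cd34*, *Angpt1*, *Cd27*, *Cd48*, *Sox4*, *Hlf* and *Ly6a* passed adjustment under any of the 13 alternatives. Over all genes the count passing was 2, and it became 5 with at least 10 counts in every library, 4 with limma-voom, 43 with DESeq2 and between 6 and 596 when a library was left out, highest without BcorWT replicate 1. With the replicate block it was 14. The numbers were not taken as pairs, since deviations of same-numbered libraries had a correlation of -0.0945. At least 10 counts removed *Ly6a*. Log2 fold changes that changed sign did so when a library was left out, with ranges of -0.36 to 0.78 for *Cd27*, -0.11 to 0.52 for *Cd48*, -0.33 to 0.16 for *Hlf* and -6.51 to 0.55 for *Ly6a*, whose lower end rests on a library with 0 counts. The same held for *Traf2* (-1.10 to 0.51), *Tnfrsf1a* (-0.67 to 0.0352), *Lcn2* (-1.95 to 0.21), *Tef* (-0.25 to 0.78), *Nfil3* (-0.23 to 0.0135), *Cd9* (-0.33 to 1.08), *Mpo* (-0.49 to 0.20), *Ifitm3* (-1.62 to 0.18), *Elane* (-1.39 to 0.32), *Siva1* (-0.53 to 0.0469) and *Ngp* (-1.80 to 0.0378). The causes were not tested. With 1 library left in a genotype, it was assumed to vary like the other genotype. Total counts in place of TMM moved the median of all genes from -0.03 to 0.04, and that of the *Mecom* partners and relatives from -0.12 to -0.06. With at least 10 counts in every library, which left 2 angiopoietin and Tie genes, their median moved from -0.03 to -0.39.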

Other observations

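Genes with the most similar pattern over the 4 libraries were sought among genes with a mean of at least 10 CPM, by the root mean square difference of centred log2 CPM. For *Sox4* the nearest were the overlapping *Gm26735*, at 0.00638, and *AI606181* at 0.0207, and 59 genes lay within 0.1. For *Cd34* the nearest were *Dad1*, a subunit gene of the oligosaccharyltransferase, at 0.0209 and *Ccdc93* at 0.0364, and 121 genes lay within 0.1. *Dad1* had 37.3 and 29.99 CPM in BcorΔE9-10 and 40.9 and 45.4 in BcorWT. For *Angpt1* the nearest were *Cep57l1* at 0.0543 and the processed pseudogene *Gm16570* at 0.0742, and only 3 genes lay within 0.1. *Cep57l1* had 18.3 and 9.13 CPM in BcorΔE9-10 and 9.05 and 8.09 in BcorWT. A pattern over 4 libraries is a description and says nothing of shared control.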
